A study of Petunia x hybrida with 32 samples.

Results

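The transcripts followed here, in petunia leaves, are 2 whose descriptions name enzymes of the first steps of proline synthesis and of proline breakdown. They are comp11948_c0_seq1, described as a delta-1-pyrroline-5-carboxylate synthase (P5CS), and comp25205_c1_seq2, described as a mitochondrial proline dehydrogenase (ProDH). They were named by identifier among 4767 transcripts with a level, and both were among the 4658 that reached at least 1 RPKM in at least 3 replicates and were tested. The 4767 are only a part of the transcripts the study assembled, and how they were chosen is not given. Shares called, ranks and adjusted p values below are therefore over the 4658 tested transcripts and not over the whole transcriptome. RPKM, a read count scaled to transcript length and to mapped reads, takes transcript length into account, so levels of different transcripts can be set side by side on this scale. The identifiers come from an assembly made without a genome, in which comp numbers mark groups of overlapping contigs and seq numbers mark their variants. No gene position was available for either.

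Plants of Petunia x hybrida cv. 'Mitchell Diploid' were grown hydroponically in aerated modified Hoagland's solution in a growth chamber with a 12 h day. The 5 groups were salt leaves at 6 h and at 24 h after 150 mM NaCl was added to the solution, and control leaves, with no added NaCl, at 6 h, at 24 h and at 0 h, just before the treatment. Each group had 3 biological replicates, each a pool of young expanded leaves from 3 plants, and most replicates were sequenced as 2 libraries of the same cDNA, indexed with HPLC or non-HPLC purified primers. By the study's methods the plants of a treatment were sampled again at each hour, while salt and control plants were different. By the same methods only control samples were used for sequencing at 0 h. The labels nevertheless list 3 salt samples at 0 h, for which no values were available. The data are therefore of 1 cultivar, 1 salt concentration and 1 leaf position, and pools hide differences between plants.

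P5CS is a bifunctional enzyme that turns glutamate into the intermediate from which proline is made, using ATP and NADPH, and it is generally held to set the rate of proline synthesis in plants. ProDH sits in the mitochondrion, where it oxidises proline back towards the same intermediate and feeds electrons into respiration. Proline is a compatible solute that accumulates in many plants during salt, drought and cold stress. In Arabidopsis, genes for P5CS are known to be induced by osmotic stress and abscisic acid, and genes for ProDH to be repressed by osmotic stress and induced by proline and by sugar starvation.

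The 28 libraries summed to 134509 to 303427 RPKM over the listed transcripts. Counts behind the RPKM values were not used here, so the precision of a level rests on the 3 replicates per group. The 7 leaf transcripts fixed as markers of green tissue, from photosystem, chlorophyll-binding and rubisco-related descriptions, summed to at least 1221 RPKM in every replicate. Their sum was 1221 to 1311 RPKM in salt leaves at 24 h, against 3559 to 4929 RPKM in control leaves at 24 h, and 2900 to 4578 RPKM in salt leaves at 6 h, against 2390 to 4184 RPKM in control leaves at 6 h. Nearly all of this sum was 1 chlorophyll a-b binding transcript, comp25306_c0_seq3 (means of 1214 RPKM in salt leaves and 4084 RPKM in control leaves at 24 h). The other 6 summed to 45.4 to 52.3 RPKM in salt leaves at 24 h, against 79.3 to 107 RPKM in control leaves. Of the 6 leaf transcripts tested 2 were called lower at 24 h and none higher, where 46.5% of all tested transcripts were called in either direction. The 12 transcripts of other tissues and dividing cells (expansins, cyclins, cellulose synthase-like proteins, a laccase and a pigment acyltransferase) summed to 50.1 to 67.2 RPKM in salt leaves at 24 h, against 136 to 170 RPKM in control leaves at 24 h. At 6 h the same list summed to 56.0 to 72.1 RPKM in salt leaves, against 76.0 to 133 RPKM in control leaves. In control leaves, but not in salt leaves, 1 expansin, comp25698_c1_seq2, carried most of the sum (means of 21.1 RPKM in salt leaves and 108 RPKM in control leaves at 24 h). The other 11 summed to 33.3 to 43.1 RPKM in salt leaves at 24 h, against 35.2 to 43.0 RPKM in control leaves. Of the 12, 1 was called higher and 3 lower at 24 h, beside the same 46.5% of all tested transcripts. The petal pigment transcript among them stood at 20.5 to 24.7 RPKM in salt leaves at 24 h, against 13.7 to 18.1 RPKM in control leaves. The part of these shifts in the results below was not tested. In pooled leaf RNA, fewer cells of a type and less RNA per cell cannot be told apart.

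P5CS was higher in salt leaves than in control leaves at both hours, and reached its highest level at 24 h of salt. At 24 h it stood at 448, 455 and 434 RPKM in the salt replicates, against 102, 123 and 132 RPKM in the control replicates. The highest control replicate was far under the lowest salt replicate, and the salt replicates lay within a few percent of each other. The means were 446 ± 10.6 RPKM in salt leaves and 119 ± 15.3 RPKM in control leaves (SD, n = 3 each), a 3.74-fold difference. On the scale log2(RPKM + 1), on which all fold changes below are given, the change was 1.90 ± 0.21 (SE), with an adjusted p of 1.05e-05 by limma over all tested transcripts. At this hour 46.5% of the tested transcripts were called at an FDR of 0.05 in one direction or the other, and P5CS ranked 203 of 4658 from the largest rise.

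At 6 h P5CS stood at 83.1, 76.25 and 94.8 RPKM in salt leaves, against 16.1, 13.3 and 17.3 RPKM in control leaves. The groups did not overlap. The means were 84.7 ± 9.40 RPKM in salt leaves and 15.6 ± 2.04 RPKM in control leaves, a 5.44-fold difference, with a log2 fold change of 2.37 ± 0.21 (SE, limma adjusted p = 1.65e-05). Of all tested transcripts 34.5% were called at this hour, and P5CS ranked 51 of 4658 by its rise. The larger fold at 6 h went with a lower control level, since the absolute level in salt leaves was higher at 24 h.

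ProDH moved the other way and was lower in salt leaves at both hours. At 24 h it stood at 1.895, 1.73 and 1.65 RPKM in the salt replicates, against 8.185, 6.64 and 6.12 RPKM in the control replicates. No replicate of one group came near the other. The means were 1.76 ± 0.125 RPKM in salt leaves and 6.98 ± 1.07 RPKM in control leaves (SD, n = 3 each), so that control leaves held 3.97-fold more. The log2 fold change was -1.53 ± 0.22 (SE, limma adjusted p = 9.22e-05), which ranked 399 of 4658 from the largest fall.

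At 6 h of salt ProDH was at its lowest, with 0.42, 0.59 and 1.045 RPKM in the salt replicates, against 3.08, 2.86 and 2.62 RPKM in the control replicates. The groups did not overlap here either, although the salt values were near the floor of 1 RPKM used to filter transcripts. The means were 0.685 ± 0.323 RPKM in salt leaves and 2.85 ± 0.230 RPKM in control leaves, so that control leaves held 4.17-fold more. The log2 fold change was -1.21 ± 0.22 (SE, limma adjusted p = 0.0013), ranked 274 of 4658 by its fall, and it understates the ratio of the means because 1 was added to levels this low. Without that addition the mean log2 difference was -2.16 at 6 h and -1.98 at 24 h.

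The stricter cut-offs of the study, an FDR of 0.001 and an absolute log2 change of 1 or more, were applied to the limma results. The study used edgeR, so the calls here are not its own. By this rule P5CS was called at both hours and ProDH at 24 h only. The rule called 4.98% of the tested transcripts at 6 h and 14.5% at 24 h. The salt effect itself was not shown to change between the hours. The effect at 24 h minus that at 6 h was -0.47 ± 0.30 (SE, limma adjusted p = 0.247) for P5CS and -0.32 ± 0.32 (SE, limma adjusted p = 0.471) for ProDH, while 32.3% of all tested transcripts were called in this interaction. The sign of the ProDH interaction turned with the pseudocount, being 0.07 with 0.1 added in place of 1.

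**Figure D1:**
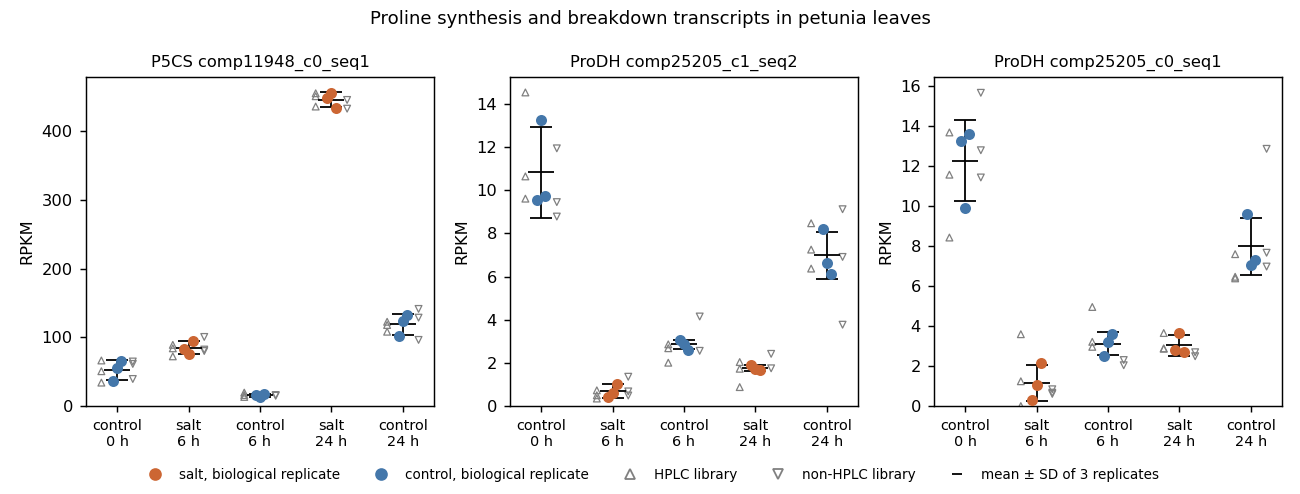
RPKM of P5CS and of the ProDH transcripts comp25205_c1_seq2 and comp25205_c0_seq1 (y axes, linear and starting at 0) in each group by hour (x axes). Filled points are biological replicates, open triangles are single libraries by index primer, and bars are the mean ± SD of 3 replicates. P5CS stands highest in salt leaves at 24 h (446 RPKM), while both ProDH transcripts stand highest in control leaves at 0 h (10.8 and 12.3 RPKM).

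The order of the 5 groups differed between the enzymes. From low to high, P5CS ran from control 6 h (15.6 RPKM) through control 0 h (52.8 RPKM), salt 6 h (84.7 RPKM) and control 24 h (119 RPKM) to salt 24 h (446 RPKM). The replicates of neighbouring groups in this order did not overlap. Among the neighbours tested, salt 6 h exceeded control 0 h by 0.71 ± 0.21 (SE, limma adjusted p = 0.0095), but without control 0 h replicate 1, the lowest at 36.8 RPKM, this call was lost with a change of 0.47 and an adjusted p of 0.0545. ProDH ran from salt 6 h (0.685 RPKM) through salt 24 h (1.76 RPKM), control 6 h (2.85 RPKM) and control 24 h (6.98 RPKM) to control 0 h (10.8 RPKM). Replicates of neighbouring groups did not overlap here either, yet control 24 h and control 0 h were not told apart by the test (limma adjusted p = 0.0595). Among all tested transcripts P5CS ranked 55 from the top by mean level in salt leaves at 24 h and 982 in control leaves at 6 h. ProDH ranked 1214 at its highest, in control leaves at 0 h, and 4124 at its lowest, in salt leaves at 6 h.

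Control leaves changed strongly between hours without any salt. P5CS averaged 52.8 ± 14.7 RPKM at 0 h, 15.6 ± 2.04 RPKM at 6 h and 119 ± 15.3 RPKM at 24 h (SD, n = 3 each). ProDH averaged 10.8 ± 2.09 RPKM, 2.85 ± 0.230 RPKM and 6.98 ± 1.07 RPKM at the same hours. Both enzymes were thus lowest at 6 h in control leaves and higher again at 24 h.

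Between 0 h and 6 h the fall in control leaves was of nearly the same size for both. It was -1.67 ± 0.21 (SE, limma adjusted p = 1.16e-05) for P5CS and -1.61 ± 0.22 (SE, limma adjusted p = 2.62e-05) for ProDH, in a comparison that called 57.1% of the tested transcripts. Under salt the enzymes parted over the same interval. Salt leaves at 6 h differed from control leaves at 0 h by 0.71 for P5CS and by -2.81 ± 0.22 (SE, limma adjusted p = 6.63e-08) for ProDH, the 70th largest fall of 4658, where 63% of transcripts were called and the median over all of them lay at -0.12. The level of ProDH in salt leaves at 6 h was 15.8-fold under that of control leaves at 0 h. Both of these comparisons share the control 0 h replicates.

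From 6 h to 24 h both transcripts rose in either treatment. P5CS was higher at 24 h than at 6 h by 2.39 ± 0.21 in salt leaves (SE, limma adjusted p = 2.72e-07) and by 2.86 ± 0.21 in control leaves (SE, limma adjusted p = 3.64e-08). ProDH was higher by 0.73 ± 0.22 in salt leaves (SE, limma adjusted p = 0.0114) and by 1.04 ± 0.22 in control leaves (SE, limma adjusted p = 0.000915). These intervals called 60.3% of tested transcripts in salt leaves, with a median of -0.14 over all of them, and 61.6% in control leaves. The rise of ProDH in salt leaves was the least firm of these calls. Its adjusted p was 0.0516 with HPLC libraries alone, 0.108 with non-HPLC libraries alone, and 0.0518 without salt 6 h replicate 1.

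The 0 h and 24 h control leaves were taken at the same hour of the day, yet P5CS was 2.26-fold higher at 24 h, with a log2 fold change of 1.19 ± 0.21 (SE, limma adjusted p = 0.000859). ProDH had a log2 fold change of -0.56 ± 0.22 (SE), which missed the threshold, where 38.3% of transcripts were called. Against the same 0 h leaves, salt leaves at 24 h were higher in P5CS by 3.09 ± 0.21 (SE, limma adjusted p = 1.01e-07), an 8.44-fold difference of the means. They were lower in ProDH, with a log2 fold change of -2.09 ± 0.22 (SE, limma adjusted p = 3.59e-06), with control 0 h leaves 6.16-fold higher. Of all tested transcripts 62.5% were called in this last comparison and their median lay at -0.24.

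**Figure D2:**
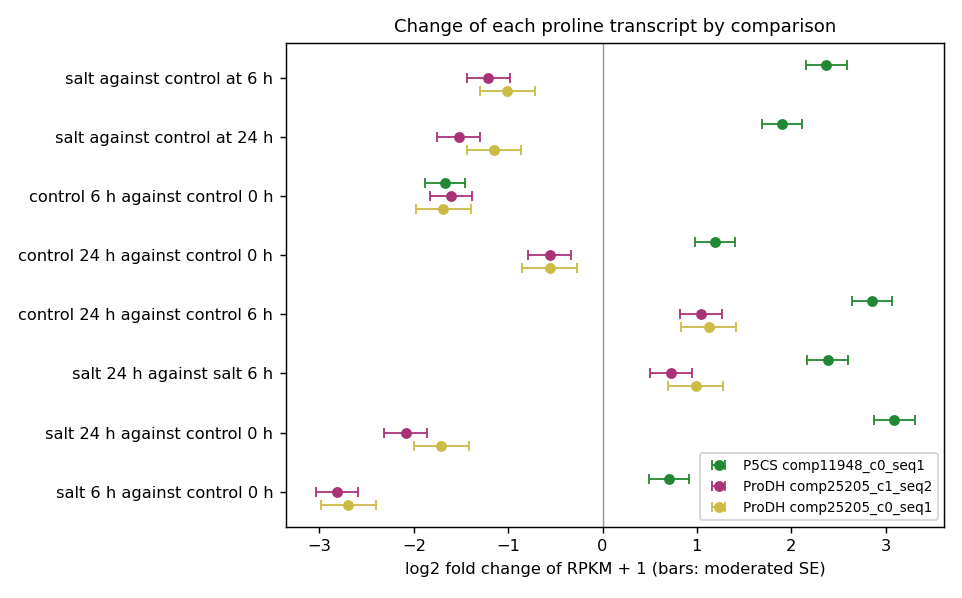
Log2 fold change of RPKM + 1 (x axis) of P5CS and of both ProDH transcripts in each comparison (y axis), with bars for limma's moderated standard error. In both salt against control comparisons P5CS lies right of 0 (2.37 and 1.90) and ProDH left of it (-1.21 and -1.53), while all 3 transcripts fell in control leaves at 6 h against 0 h.

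The shares of tested transcripts that met the same calls as each member are given here as background. The sets of calls were taken from the members' own results, and each added condition lowers a share. A small share is therefore no further evidence about the members. P5CS was among 316 transcripts called higher under salt at both hours, which is 6.78% of those tested. ProDH was among 281 called lower at both hours, or 6.03%. Those called higher under salt at both hours and also lower in control leaves at 6 h than at 0 h, as P5CS was, made up 1.16% of the tested transcripts, and those called lower in all 3 comparisons, as ProDH was, made up 1.55%.

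**Figure D3:**
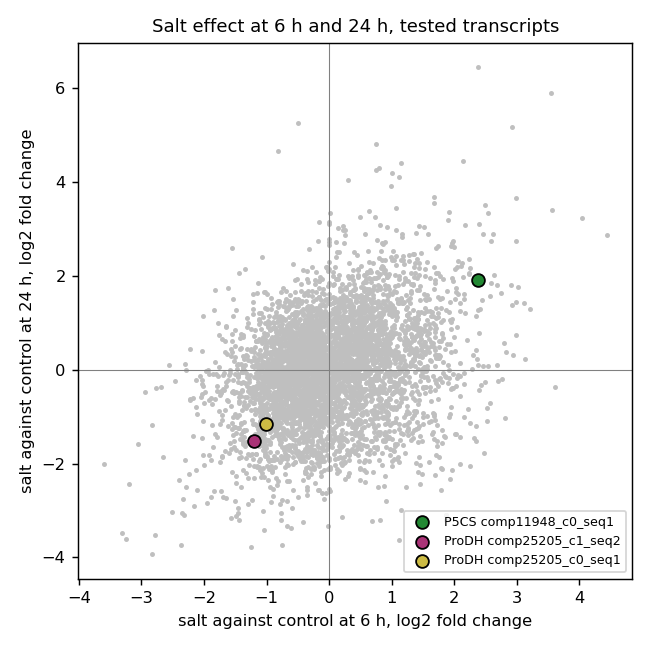
Log2 fold change of salt against control at 6 h (x axis) and at 24 h (y axis) for the 4658 tested transcripts (grey points), with the proline transcripts as large points. P5CS lies in the upper right at 2.37 and 1.90, and the ProDH transcripts lie in the lower left, with comp25205_c1_seq2 at -1.21 and -1.53.

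The ratio of P5CS to ProDH, formed in each replicate, separated salt from control leaves at both hours. At 24 h the plain RPKM ratio was 236, 263 and 263 in salt leaves, against 12.5, 18.6 and 21.6 in control leaves. At 6 h it was 198, 129 and 90.8 in salt leaves, against 5.22, 4.66 and 6.60 in control leaves. In control leaves at 0 h it was 3.86, 4.23 and 6.76. Every salt replicate was above every control replicate of any hour, and on the log2 scale the salt ratios at 24 h had the smallest SD of the 5 groups. That closeness does not show high precision. The libraries of salt 24 h replicate 3 gave ratios of 495 and 179, and replicate 2 rested on a single used library. The technical SD of a single library was 0.372 for the log2 ratio with 1 added.

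The geometric mean of the ratio was 254 in salt leaves and 17.1 in control leaves at 24 h, a 14.8-fold difference. At 6 h it was 132 in salt leaves and 5.44 in control leaves, a 24.4-fold difference. On the scale log2((P5CS + 1)/(ProDH + 1)), the mean was 7.34 ± 0.056 in salt leaves and 3.91 ± 0.379 in control leaves at 24 h, and 5.68 ± 0.182 in salt leaves and 2.10 ± 0.225 in control leaves at 6 h (SD, n = 3 each). The differences on this scale were 3.43 ± 0.22 at 24 h and 3.58 ± 0.17 at 6 h (SE), each with a two-sided exact permutation p of 0.1, the smallest that 3 against 3 replicates allow. Relabelling salt and control within both hours together, the mean difference of 3.50 had a two-sided exact permutation p of 0.005, the smallest that its 400 relabellings can give, and the ratio was higher in 6 of 6 salt replicates than in any control replicate of the same hour. This test takes the hours as independent, although the plants were sampled at both. With a replicate number taken as the same pool at both hours, only 20 relabellings remain and the exact permutation p was 0.1, the smallest they can give. At each hour the replicates of P5CS and of ProDH had already separated in opposite directions without overlap. The ratio therefore had to separate too, and these p values had to be the smallest possible. They add no evidence to the results of the single transcripts. The change of the salt effect on the ratio between the hours was -0.15 with 1 added to each level and -0.71 with nothing added, and it was not tested.

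Both enzymes contributed to this difference. At 24 h P5CS gave 1.90 and ProDH 1.53 of the 3.43 units, so that P5CS made up 55.5% of it. At 6 h P5CS gave 2.37 and ProDH 1.21 of the 3.58 units, or 66.3% for P5CS. With nothing added to the levels, the parts were 1.91 for P5CS and 1.98 for ProDH at 24 h, and 2.45 for P5CS and 2.16 for ProDH at 6 h, so the split depends on how levels near 0 are treated.

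Over time the ratio behaved differently from its parts. In control leaves the geometric mean was 4.80 at 0 h, 5.44 at 6 h and 17.1 at 24 h. The replicates at 6 h and 0 h overlapped (log2 difference of -0.06, exact permutation p = 0.9), although P5CS had fallen 3.39-fold and ProDH 3.79-fold between them, while the replicates at 24 h lay above those of both earlier hours (differences of 1.75 over 0 h and 1.81 over 6 h, each with an exact permutation p of 0.1, the smallest possible). The p over 0 h was fixed in advance, since P5CS was higher and ProDH lower at 24 h without overlap of replicates. In salt leaves the ratio was also higher at 24 h than at 6 h, by 1.66 on the log2 scale (exact permutation p = 0.1), or 1.92-fold with nothing added. Against control leaves at 0 h the ratio was 52.9-fold higher in salt leaves at 24 h and 27.6-fold higher in salt leaves at 6 h, with nothing added.

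**Figure D4:**
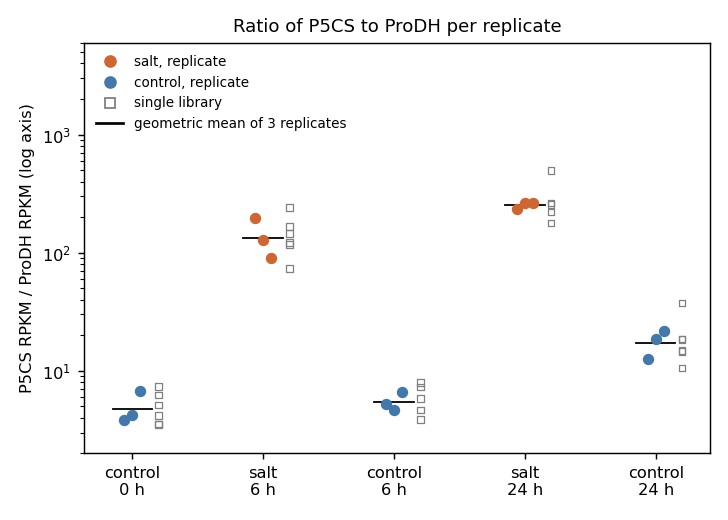
Ratio of P5CS RPKM to ProDH RPKM (y axis, log scale) in each group by hour (x axis). Filled points are biological replicates, squares are single libraries, and lines are geometric means of 3 replicates. The salt replicates lie between 90.8 and 263 and the control replicates between 3.86 and 21.6.

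Libraries of the same cDNA with different index primers gave an estimate of technical spread. In the 13 replicates with both primers, P5CS differed between them by 0.134 on the log2 scale on average (mean absolute difference), and by 0.366 at most. ProDH, which is far less abundant, differed by 0.347 on average and by 0.989 at most. The technical SD of a single library was 0.330 for ProDH and 0.122 for P5CS. The SD between biological replicates, taken after their libraries were averaged, was 0.195 for ProDH and 0.233 for P5CS. This second SD still holds technical spread and is for another unit, so the sizes of the SDs are not ranked. The HPLC library was the higher one in 6 of 13 replicates for either transcript.

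Single libraries still separated the treatments. ProDH ranged from 0.88 to 2.42 RPKM over the salt libraries at 24 h, against 3.77 to 9.12 RPKM over the control libraries. At 6 h it ranged from 0.35 to 1.36 RPKM over the salt libraries, against 2.01 to 4.15 RPKM over the control libraries. The single-library ratio was 179 to 495 in salt leaves at 24 h, against 10.6 to 37.5 in control leaves, and 74.0 to 240 in salt leaves at 6 h, against 3.88 to 8.01 in control leaves.

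The annotation described 8 transcripts as P5CS or ProDH, 3 as P5CS and 5 as ProDH, and 3 of these 8 had RPKM values. Those without values included comp25205_c1_seq1, the other variant of the ProDH contig, and transcripts of other components for both enzymes. P5CS and ProDH therefore name only the 2 transcripts followed, also in the ratio, and their changes need not be those of the whole genes or enzymes. The transcript with values beside the members was comp25205_c0_seq1, described as a proline oxidase dehydrogenase and belonging to the same component as ProDH. Whether it is another part or another copy of the gene was not tested, and how reads were shared between the contigs of a component is set by the estimate of expression, so its agreement with ProDH is not independent. At 24 h it stood at 2.78, 3.65 and 2.685 RPKM in salt leaves, against 9.615, 7.06 and 7.28 RPKM in control leaves, without overlap. At 6 h it stood at 0.305, 1.04 and 2.13 RPKM in salt leaves, against 2.50, 3.21 and 3.625 RPKM in control leaves, again without overlap. Single libraries did overlap at 6 h, since salt libraries ran from a listed 0 to 3.59 RPKM and control libraries from 2.04 to 4.95 RPKM.

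Its log2 fold change under salt was -1.15 ± 0.29 at 24 h (SE, limma adjusted p = 0.00492) and -1.01 ± 0.29 at 6 h (SE, limma adjusted p = 0.0155). In control leaves it was lower at 6 h than at 0 h, with a log2 fold change of -1.69 ± 0.29 (SE, limma adjusted p = 0.000182). Its call at 6 h of salt was lost with either primer set alone (adjusted p of 0.0739 and 0.0766), when the compared groups were fitted alone (0.0638), without control 6 h replicate 3 (0.0521) and without salt 6 h replicate 1 (0.079), and that at 24 h with HPLC libraries alone (0.104). Over the 15 replicates its log2 levels had a Pearson r of 0.956 with those of ProDH and of -0.08 with those of P5CS, and r between P5CS and ProDH was -0.21. These values describe 5 groups of 3 replicates in shared libraries and carry no test. Enzymes that finish the pathway, such as pyrroline-5-carboxylate reductase and dehydrogenase, or that enter it from ornithine and arginine, were not matched among the described transcripts by the words searched.

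Other genes around proline were followed by lists matched to the descriptions, read here as counts against the share of all transcripts called. Only 1433 of the 4767 transcripts with a level had a description, so each list can miss genes that have none. Of 9 transcripts of amino acid transport in 6 components, 7 were higher and 2 lower in salt leaves at 24 h, where 46.5% of all tested transcripts were called, with a median log2 fold change of 1.44 against 0.01 over all of them. At 6 h, where 34.5% of all were called, none was higher and 2 were lower, with a median of 0.59 against -0.07. The lower ones at both hours were the isoforms of comp13398_c0, an amino acid permease 6, of a family that imports amino acids into cells. Its seq2 isoform fell with a log2 fold change of -1.26 ± 0.24 at 24 h (SE, limma adjusted p = 0.000621) and -1.14 ± 0.24 at 6 h (SE, limma adjusted p = 0.00258). Another permease 6 component, comp25595_c0_seq5, rose by 2.06 ± 0.31 at 24 h (SE, limma adjusted p = 0.00012) and had a change of 0.60 at 6 h.

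The transcript described as a proline transporter, comp24102_c4_seq1, was singled out after its values were seen. It stood at 64.3 to 77.1 RPKM in salt leaves at 24 h, against 19.1 to 29.4 RPKM in control leaves, with a log2 fold change of 1.44 and a limma adjusted p of 0.000792. At 6 h it stood at 42.3 to 51.8 RPKM in salt leaves, against 30.8 to 34.5 RPKM in control leaves, which did not pass the test (adjusted p = 0.148). The largest change of the list was that of comp7589_c0_seq2, a vacuolar amino acid transporter 1-like transcript, with 4.50 to 13.5 RPKM in salt leaves at 24 h while all 3 control replicates at 24 h were listed at 0.

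On the side of nitrogen, only asparagine synthetase, comp13018_c0_seq1, matched its list. This enzyme makes asparagine, a nitrogen-rich amide used for transport and storage. It stood at 77.9 to 177 RPKM in salt leaves at 24 h, against 4.02 to 48.8 RPKM in control leaves, and at 170 to 402 RPKM in salt leaves at 6 h, against 8.87 to 24.2 RPKM in control leaves. The log2 fold changes were 3.23 ± 0.69 at 24 h (SE, limma adjusted p = 0.0016) and 4.04 ± 0.69 at 6 h (SE, limma adjusted p = 0.000758). Its salt replicates at 24 h and 6 h overlapped.

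A list searched for amino acid breakdown, though none of its members is described as mitochondrial, held 8 transcripts in 5 components. Of these, 8 were higher in salt leaves at 24 h (46.5% of all tested called) and 6 at 6 h (34.5% of all called), with medians of 1.74 and 1.07. They were mainly forms of branched-chain amino acid aminotransferase, which takes the amino group from leucine, isoleucine and valine in breakdown but also adds it in their synthesis, and all 5 forms are described as chloroplastic. The list also held homogentisate phytyltransferase, which belongs to tocopherol synthesis and not to breakdown. The form comp26136_c1_seq9 rose by 2.20 ± 0.25 at 24 h (SE, limma adjusted p = 1.28e-05) and by 0.86 ± 0.25 at 6 h (SE, limma adjusted p = 0.0174). The 4 forms of comp26136_c1 share a component and are not independent. In the list of arginine, ornithine and polyamines, which holds only polyamine enzymes, 2 of 7 were lower and none higher at 24 h, and 1 was higher at 6 h, with medians of -0.94 and 0.26, beside the 46.5% and 34.5% called among all transcripts at these hours.

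Transcripts for other compatible solutes, in which trehalose and inositol synthesis were found, rose at 6 h as P5CS did, and most were not called at 24 h. Of 6 in 4 components, 6 were higher at 6 h, where 34.5% of all tested were called, and 1 at 24 h, where 46.5% were, with medians of 1.18 and -0.08. Trehalose-6-phosphate synthase comp26338_c0_seq2 was the one called at both hours (1.41 ± 0.30 at 24 h, limma adjusted p = 0.00148, and 1.29 ± 0.30 at 6 h, limma adjusted p = 0.00499, SE). Inositol-3-phosphate synthase comp13205_c1_seq1 had 1.03 ± 0.28 at 6 h (SE, limma adjusted p = 0.0117) and -0.34 at 24 h. Like P5CS, it was lower in control leaves at 6 h than at 0 h, with a log2 fold change of -3.95 ± 0.28 (SE, limma adjusted p = 2.68e-08).

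The list of abscisic acid and dehydration markers held only type 2C protein phosphatases, a family of which some members are brakes on abscisic acid signalling. Of 24 tested in 8 components, 3 were higher and 3 lower at 24 h, and 8 were higher and 4 lower at 6 h, with medians of -0.35 and 0.20. Among all tested transcripts 46.5% were called at 24 h and 34.5% at 6 h. The 3 higher at 24 h were the isoforms of comp21321_c1, a phosphatase 2C 8-like transcript, and its seq1 isoform rose by 2.88 ± 0.37 at 24 h and by 2.62 ± 0.37 at 6 h (SE, limma adjusted p = 3.16e-05 and 0.000216). The list searched for bZIP and starvation signals held no bZIP factor but 2 senescence-associated proteins and 2 isoforms of 1 component. Of these 4, 2 were higher at 24 h, both of that component, and 3 at 6 h, beside 46.5% and 34.5% of all tested transcripts. The component is a regulatory gamma subunit of an SNF1-related kinase, the energy sensor of plant cells, and comp24211_c0_seq1 rose by 1.85 ± 0.41 at 24 h (SE, limma adjusted p = 0.00208) and 2.59 ± 0.41 at 6 h (SE, limma adjusted p = 0.000448). Alternative oxidase, comp13309_c0_seq1, a mitochondrial bypass for electrons and the single member of the redox list, rose by 1.22 ± 0.33 at 24 h (SE, limma adjusted p = 0.00719) and had 0.10 at 6 h.

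The described transcripts whose log2 levels ran most like P5CS over the 15 replicates were taken from other components, 1 from each. They were comp25954_c0_seq5, a phosphoglycerate mutase-like protein (Pearson r = 0.983), comp26529_c0_seq1, a 70-kDa heat shock chaperone (0.974), and comp16360_c0_seq4, a ninja-family AFP2-like protein (0.968). They were followed by comp10770_c0_seq1, an inositol transporter (0.966), and comp23645_c0_seq1, 4-hydroxyphenylpyruvate dioxygenase of tyrosine breakdown (0.963). Their log2 fold changes under salt, 0.55 to 1.74 at 24 h and 1.01 to 2.03 at 6 h, follow from this choice and are no further evidence.

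Most like ProDH were comp13398_c0_seq2, the amino acid permease 6-like transcript above (Pearson r = 0.970), comp11152_c0_seq1, a chloroplast phosphate transporter (0.962), and comp24587_c1_seq4, described only by an Arabidopsis locus name (0.953). After them came comp22210_c0_seq1, gibberellin 3-oxidase, which makes active gibberellins (0.950), and comp26055_c0_seq8, an F-box protein (0.934). Their log2 fold changes under salt, -2.06 to -1.01 at 24 h and -1.15 to -0.83 at 6 h, likewise follow from the choice. The likeness rests on 5 groups in shared libraries and was not tested.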

How the data were processed

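Leaf RNA of control and salt-treated petunia was analysed. Per the study's methods, the authors made strand-specific poly(A) libraries, assembled the reads with Trinity, estimated expression with RSEM and annotated transcripts with Blast2GO. The deposited values are RPKM per library and transcript, and whether a TMM factor was applied, and how 4767 transcripts were chosen, is not given in the sources used here. Of 29 columns 28 were used, and 1 column of per-sample values was left out. For salt 24 h replicate 2 the labels list 1 library and the table holds both primers, so the HPLC column was kept and the non-HPLC one not used. The labels do not say which of them they list, while the study gives reads for both primers of every salt 24 h library. For control 6 h the labels list 6 libraries and there are 5 columns. The study reports that 1 non-HPLC control library at 6 h failed. Libraries of a replicate were averaged. Replicates are separate pools of plants, but pools of one treatment at different hours came from the same plants, which the fit ignores.

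Values were taken as log2(RPKM + 1) and fitted for all 5 groups with limma 3.58.1 under R 4.3.3, with mean-dependent moderation of the variance and Benjamini-Hochberg adjustment over 4658 transcripts, which left out 109. The fit was tested on simulated data. Ratios were compared by exact permutation in Python 3.11.15 with pandas 2.3.3 and numpy 2.4.6, and figures drawn with matplotlib 3.10.9. The members and the 11 lists were chosen with earlier results of these data known. Named transcripts are the members, described proline transcripts, up to 4 per list with the smallest adjusted p at 24 h, and the 5 most like each member. Alternatives were a pseudocount of 0.1, none (ratio), no filter on low values, a replicate block, 1 primer set, the compared groups alone, replicates set to the same median, and leaving out each replicate. ProDH as the mean of 2 transcripts, and replicate numbers taken as the same pool at both hours, were added after seeing the data. The columns' names give the primer and the labels a technical number, so the primer was used. No sequence was used.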

Additional observations from a re-analysis of the deposited data

Results flagged for a closer look

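Neither P5CS nor ProDH had a salt effect that differed between the hours beyond the test. Among the other named transcripts, 12 did, by limma's interaction term at an FDR of 0.05. Of all tested transcripts 32.3% were called by this term. Many of the named transcripts were chosen by their adjusted p at 24 h or by likeness to a member. Their count is therefore no result about them as a set. The value given below is the salt effect at 24 h minus that at 6 h on the log2 scale.

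In 4 transcripts the salt effect was more positive at 24 h. The difference was 3.32 for comp7589_c0_seq2, a vacuolar amino acid transporter 1-like transcript (adjusted p = 0.000114 by limma), 1.46 for comp25595_c0_seq5, an amino acid permease 6, and 1.34 and 1.19 for the branched-chain aminotransferase forms comp26136_c1_seq9 and comp26136_c1_seq7. The other forms and the other 7 transport transcripts did not pass this test.

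In 8 transcripts the difference was negative. For 4 of them a rise at 6 h was not called at 24 h or was smaller there. In solute synthesis and amino acid breakdown the difference was -1.37 for inositol-3-phosphate synthase comp13205_c1_seq1, -1.35 for trehalose-phosphate phosphatase comp17913_c0_seq1 and -1.38 for 4-hydroxyphenylpyruvate dioxygenase comp23645_c0_seq1. It was -1.49 for the senescence-associated protein comp11967_c0_seq1. For the other 4, all tissue markers, the salt effect was a fall at 24 h that was smaller or absent at 6 h. The difference was -1.88 for the photosystem II protein comp12720_c0_seq2, -2.03 for the chlorophyll a-b binding protein comp25306_c0_seq3, -1.01 for the expansin comp25698_c1_seq2 and -1.12 for the cyclin-dependent kinase comp13852_c0_seq2.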

How the results depend on the processing

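Under 123 alternative fits of each, P5CS lost 1 call and ProDH lost 4, and the ProDH interaction, which was not called, changed sign with a pseudocount of 0.1 (0.0657) and with non-HPLC libraries alone (0.0018). Their salt effects kept direction and call under every alternative run: P5CS ranged from 1.80 to 1.98 at 24 h and 2.27 to 2.47 at 6 h, and ProDH from -1.92 to -1.24 at 24 h and -1.99 to -1.09 at 6 h. With HPLC libraries alone the ProDH change from 6 h to 24 h of salt was 0.718, and with non-HPLC alone 0.763, and neither passed the threshold. With non-HPLC alone its change in control leaves from 6 h to 24 h was 0.761 (adjusted p = 0.11). Leaving out 1 replicate gave 0.612 to 0.875 for ProDH at 24 h against 6 h of salt, and 0.470 to 0.879 for P5CS in salt 6 h against control 0 h. The interaction of comp25205_c0_seq1 was 0.289 with a pseudocount of 0.1, 0.170 with HPLC libraries alone, and -0.46 to 0.17 with 1 replicate left out. The 1607 transcripts called at 6 h became 1071 with HPLC and 654 with non-HPLC libraries alone, and 1021 to 1611 with 1 replicate left out, the lowest without control 6 h replicate 2. The 1505 called in the interaction became 959 and 642.

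The size of the ratio depends on the pseudocount, since ProDH is near 0 in salt leaves. With 0.1 and with nothing added, the log2 ratio difference was 3.83 and 3.89 for salt against control at 24 h, 4.43 and 4.61 at 6 h, 1.08 and 0.94 for salt 24 h against 6 h, 5.66 and 5.73 for salt 24 h against control 0 h, and 4.58 and 4.79 for salt 6 h against control 0 h. For control 6 h against 0 h, where the replicates overlapped, it was 0.15 and 0.18. With HPLC libraries alone it was 0.295 for control 6 h against 0 h and 5.49 for salt 24 h against control 0 h. With non-HPLC alone it was 3.10 for salt against control at 24 h and 4.84 for salt 24 h against control 0 h. With ProDH as the mean of 2 transcripts it was 1.52 for salt 24 h against 6 h.

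With the replicate block the salt effect was 1.90 at 24 h and 2.37 at 6 h for P5CS and -1.53 and -1.21 for ProDH, no call of either changed, and 1569 transcripts were called at 6 h. The paired salt minus control ratio difference of 3.50 had an exact sign-flip p of 0.0312 over 6 pairs, the smallest possible, taking the pairs as independent although the plants were sampled at both hours. With replicate numbers as the same pool at both hours, relabelled jointly (added after seeing the data), 3.50 had an exact permutation p of 0.1. Both p values had to be the smallest possible, since P5CS and ProDH each separated the treatments, in opposite directions, and they add no evidence. Same-numbered salt and control replicates deviated together with r of -0.23 to 0.11, and not every replicate correlated best with its own number, so they share only a number and the pairing has no other basis.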
